A study of Mus musculus with 42 samples.

Results

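The 39 genes described here encode the presynaptic machinery that docks, primes and fuses synaptic vesicles: 13 synaptotagmins, 4 membrane-fusion proteins of the SNARE family, the 2 factors that take SNARE complexes apart, 3 complexins, 3 synapsins, 4 vesicle membrane proteins, 6 priming and active-zone proteins, and 4 proteins of the Rab3 system. They were chosen by name, and each is read from the brightest of the probe sets that name it alone, judged by the mean of all 42 arrays. All 39 were found among the 18193 genes measured in this way. RNA was measured on Affymetrix expression arrays in the striatum and hippocampus of C57BL6 mice that were either wild type (WT) or PDE10A knockout (KO), and that received either vehicle or a PDE10 inhibitor, labelled PDE10i. The striatum had 5 arrays of WT mice on vehicle, 6 of WT on inhibitor, 5 of KO on vehicle and 4 of KO on inhibitor. The hippocampus had 6, 6, 5 and 5 arrays in the same order. The compound, its dose, the duration of treatment, the age of the mice and the structure of the knockout allele were not given in the sources used here. Brain regions were dissected by hand and frozen, so every value is an average over all cells of the piece taken. Nothing in the labels says whether each array came from a separate mouse, so the p-values rest on a spread between samples that may be partly or wholly technical. All values are log2 signals, and the level of 1 gene is not set against that of another because probes differ in brightness.

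Vesicle release runs in a fixed order. Rab3 proteins and their effectors bring vesicles to the active zone, where RIM, Munc13, Bassoon and Piccolo organise docking and priming. Syntaxin, SNAP-25 and synaptobrevin then zip into the SNARE complex, complexins clamp and assist it, and synaptotagmins trigger fusion when calcium enters. Afterwards NSF and SNAP proteins separate the used SNARE complexes, while synapsins hold the reserve pool of vesicles. PDE10A, which breaks down cAMP and cGMP, is concentrated in the projection neurons of the striatum, which release GABA. The hippocampus is dominated by neurons that release glutamate, and the striatum receives glutamate axons whose cell bodies, and most of whose RNA, lie in cortex and thalamus.

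The dissections carried the markers of their labels. The mean of 8 measured striatal projection neuron markers lay between 10.97 and 11.81 on striatal arrays and between 6.82 and 7.51 on hippocampal arrays, and the mean of 8 hippocampal markers lay between 7.38 and 9.10 on hippocampal arrays and between 6.32 and 6.74 on striatal arrays. That array, WT inhibitor 13 by its sample title, read 7.38, against 8.58 to 8.93 on the other arrays of its group. It was kept in the comparisons of its group, except where single arrays were left out. Within the striatum the mean of 9 measured markers of glutamatergic forebrain neurons (Slc17a7, Neurod6, Tbr1 and others) spanned 6.49 to 9.47. In the hippocampus it spanned 9.93 to 10.17. The mean of 8 thalamic markers spanned 6.52 to 8.44 on striatal arrays and 7.13 to 8.29 on hippocampal arrays. Pde10a itself was not lower on arrays labelled KO: its striatal mean was 12.32 ± 0.26 (SD, n = 5) in WT on vehicle and 12.35 ± 0.22 (n = 5) in KO on vehicle. The position of its probes relative to the deleted part is not given here, so this checks nothing. A score of 15 chromosome 17 genes, the chromosome of Pde10a, placed 8 arrays on the side of the other genotype (4 in each region). In the striatum these were KO vehicle 25 and WT inhibitor 13, 14 and 15, where numbers are those of the sample titles. Their scores were 0.098, 0.589, 0.787 and 0.541 in that order, and 0.5 divides the sides. The other striatal KO arrays scored 0.792 to 1.11 and the other striatal WT arrays -0.186 to 0.123. WT inhibitor 13 and 15 thus lay between the ranges, and WT inhibitor 14 just below that of KO. In the hippocampus the 4 arrays were KO vehicle 25 and 26 and WT inhibitor 12 and 14. They scored -0.0016, 0.106, 1.04 and 0.790 in that order. Statements about KO therefore concern arrays labelled KO, and results that rest on these 8 arrays are given with and without them.

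The stretches upstream of 4 members are shown because the results below turn on those genes. Syn1 and Stx1a followed the glutamatergic markers within the striatum, and Rab3c passed the test between arrays labelled KO and WT. Unc13c differed most between the regions in WT mice on vehicle. Each stretch runs 5′ to 3′ along the strand of the gene and ends at the base before its start, in the RefSeq table of build GRCm38.p6. Capitals mark the letters TGACG on either strand, the core of the cAMP response element, and the letters TTCAGCACC, the left portion of the RE1 element that the neuronal repressor REST binds.
Syn1: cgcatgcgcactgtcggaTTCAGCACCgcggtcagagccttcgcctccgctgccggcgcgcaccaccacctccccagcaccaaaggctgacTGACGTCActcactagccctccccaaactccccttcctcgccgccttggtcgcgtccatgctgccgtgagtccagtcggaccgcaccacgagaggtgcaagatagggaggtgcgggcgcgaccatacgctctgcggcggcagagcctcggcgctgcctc
Stx1a: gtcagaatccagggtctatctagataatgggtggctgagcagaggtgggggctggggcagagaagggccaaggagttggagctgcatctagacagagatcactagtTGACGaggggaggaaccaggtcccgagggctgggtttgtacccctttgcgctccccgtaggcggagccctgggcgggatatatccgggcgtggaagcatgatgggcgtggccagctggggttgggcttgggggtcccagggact
Rab3c: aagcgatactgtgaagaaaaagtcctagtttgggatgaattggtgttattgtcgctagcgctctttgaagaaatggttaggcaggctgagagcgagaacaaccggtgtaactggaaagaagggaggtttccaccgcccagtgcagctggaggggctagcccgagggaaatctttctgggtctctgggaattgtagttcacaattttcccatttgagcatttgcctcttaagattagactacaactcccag
Unc13c: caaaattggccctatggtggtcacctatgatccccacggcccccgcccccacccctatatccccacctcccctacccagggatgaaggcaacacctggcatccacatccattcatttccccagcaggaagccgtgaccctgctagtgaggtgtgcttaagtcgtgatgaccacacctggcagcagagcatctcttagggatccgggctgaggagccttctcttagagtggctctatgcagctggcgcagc
These are Syn1 at chrX:20920919-20921168 on the minus strand, Stx1a at chr5:135023232-135023481 on the plus strand, Rab3c at chr13:110280207-110280456 on the minus strand and Unc13c at chr9:73969038-73969287 on the minus strand. In Syn1 the letters TGACG begin at position -159 on the strand shown, counted back from the start, and, overlapping with them, at -156 on the opposite strand, so that together they form the palindrome in capitals. The RE1 letters of Syn1 begin at -232. In Stx1a the letters TGACG begin at -144, and neither motif occurs in the windows of Rab3c and Unc13c. Of all 32851 windows of this length in the table, 17.77% hold TGACG and 0.301% hold the RE1 letters. Of the 39 members 29 have at least 1 window, 40 windows in all, and 7 of these 40 (17.5%) hold TGACG: those of Rab3a, Rab3b, Stx1a, Syn1, Syt10, Syt2 and Unc13a. Syn1 alone among the members holds the RE1 letters. A match of letters describes the sequence and shows neither binding nor regulation.

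The release genes differed between the regions. In WT mice on vehicle 10 of the 39 were higher in striatum than in hippocampus and 17 were lower at an adjusted p under 0.05 (limma with Benjamini-Hochberg adjustment over 18193 genes), 27 in all. Over all genes 33.9% passed, 15.9% higher and 17.9% lower. The median difference over the members was -0.17, against 0.03 over all genes. The median size of the difference regardless of direction was 0.41, against 0.14. Apart from Syt10 and Sv2c, the members have mean signals above the median of all probe sets (6.1). All genes include dimmer ones, where signals are compressed, and the shares over all genes given here are not matched for brightness. In WT mice on inhibitor 28 members passed, 9 higher and 19 lower, where 35.6% of all genes did (18.4% higher, 17.2% lower). In KO mice on vehicle 23 passed, 9 higher and 14 lower, against 27.3% of all genes (12.5% and 14.8%), and in KO mice on inhibitor 22 passed, 8 higher and 14 lower, against 26.1% (10.6% and 15.5%). These 4 comparisons share no arrays. Rims2, Syn3, Syt12, Syt4, Syt6 and Unc13c were higher in striatum in all 4, and Napb, Nsf, Pclo, Sv2b, Syn1, Syn2, Syp, Syt1, Syt13, Syt17 and Syt7 were lower in all 4. Another 16 passed in some of the comparisons, 6 (Cplx1, Cplx3, Rab3a, Sv2a, Syt11 and Syt2) in none, and none passed in opposite directions. In these bulk samples fewer cells of a type and less RNA per cell cannot be told apart.

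**Figure D1:**
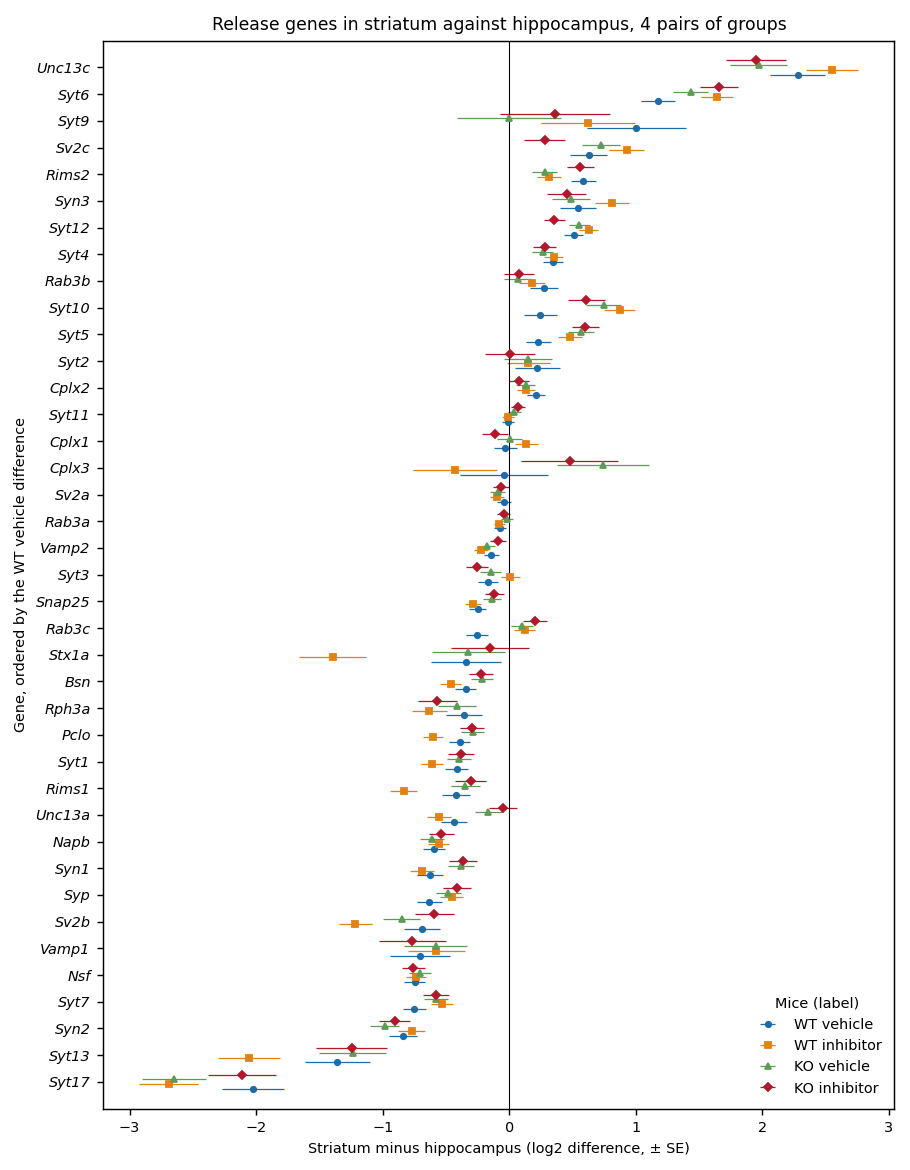
Differences between striatum and hippocampus (log2) for the 39 release genes in the 4 independent combinations of genotype and treatment, each with its own colour and marker; bars are ± 1 SE and genes are ordered by the WT vehicle difference. Unc13c and Syt6 stand to the right and Syt17 and Syt13 to the left in all 4, and 33 of the 39 genes kept their sign throughout.

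The synaptotagmins, the calcium sensors of release, went both ways: in WT mice on vehicle 4 of the 13 were higher in striatum and 4 lower. Syt17, an atypical synaptotagmin also known as the B/K protein, read 7.88, 8.64, 7.33, 6.50 and 7.73 on the 5 striatal arrays and from 9.46 through a median of 9.58 to 10.02 on the 6 hippocampal arrays. The groups did not overlap, and the difference was -2.02 ± 0.24 (SE), or 4.07-fold (adjusted p = 1.30e-08, limma). Syt13, a synaptotagmin that does not bind calcium, differed by -1.36 ± 0.26 (2.56-fold) and Syt7, the slow, high-affinity sensor of asynchronous release and facilitation, by -0.75 ± 0.09. Syt1, the fast calcium sensor of forebrain synapses, differed less, by -0.41 ± 0.09 (1.33-fold).

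Syt6 was the synaptotagmin furthest above the hippocampus. It read 6.65, 6.81, 6.86, 6.73 and 6.27 in striatum and from 5.17 through a median of 5.50 to 5.80 in hippocampus, a difference of 1.18 ± 0.13 (2.26-fold) with every striatal array above every hippocampal array. Syt12 was higher by 0.51 ± 0.08 and Syt4, a dense-core vesicle synaptotagmin, by 0.35 ± 0.08. Syt9, a fast calcium sensor related to Syt1 and Syt2, passed in WT on vehicle (1.00 ± 0.39, adjusted p = 0.0439, limma) but its direction was not the same throughout: the difference was 0.62 in WT on inhibitor, -0.0029 in KO on vehicle and 0.36 in KO on inhibitor, and none of the last 3 passed. Its striatal arrays in WT on vehicle were close together (7.20 to 7.61) whereas its hippocampal values ran from 5.67 to 8.10, so the groups overlapped. Single hippocampal arrays also read high in KO on vehicle (8.83) and in KO on inhibitor (8.02). Syt3 and Syt11 changed sign among the 4 comparisons with small differences, -0.25 to 0.0065 and -0.013 to 0.067, and Syt3 passed in 1 of them, KO on inhibitor.

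The SNARE proteins and the factors that recycle them were lower in striatum where they differed. Nsf, the ATPase that separates used SNARE complexes, read 12.14, 12.09, 11.84, 11.71 and 12.00 in the striatum of WT mice on vehicle, and from 12.57 through a median of 12.70 to 12.83 in the hippocampus. No array overlapped, and the difference was -0.75 ± 0.08 (1.68-fold, adjusted p = 1.08e-09, limma). It stayed between -0.76 and -0.71 in all 4 comparisons. Napb, the neuronal SNAP protein that recruits Nsf, differed by -0.60 ± 0.09. Among the SNAREs themselves Vamp1, a synaptobrevin, differed by -0.71 ± 0.24 and Snap25 by -0.25 ± 0.07, while Stx1a (-0.34 ± 0.28) and Vamp2 (-0.14 ± 0.06) did not pass in WT on vehicle. Stx1a reached -1.40 and passed in WT on inhibitor. Vamp1 read 9.72, 9.36, 9.02, 8.44 and 10.04 in the striatum of WT mice on vehicle. The thalamic marker means of those arrays were 7.73, 7.09, 6.72, 6.74 and 8.19, and their part in the Vamp1 values was not tested.

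The 3 synapsins split. Syn2 (-0.84 ± 0.11) and Syn1 (-0.63 ± 0.10) were lower in the striatum of WT mice on vehicle, and Syn3 was higher (0.54 ± 0.14), each with the same call in all 4 comparisons. Syn2 means were 10.76 ± 0.19 (SD, n = 5) in striatum and 11.60 ± 0.04 (n = 6) in hippocampus, and Syn3 means 8.07 ± 0.15 and 7.53 ± 0.21. The SV2 glycoproteins, which modulate the vesicle's readiness to fuse, also split. Sv2b was lower (-0.69 ± 0.14), Sv2c, the isoform known for its enrichment in basal ganglia, was higher (0.63 ± 0.15), and Sv2a differed by -0.04 ± 0.06. Sv2c read only 4.71 ± 0.21 in striatum and 4.08 ± 0.12 in hippocampus, below the median of all probe sets (6.1), where signals are compressed. Synaptophysin (Syp), an abundant vesicle membrane protein, was lower (-0.63 ± 0.10). Cplx2 was higher by 0.21 ± 0.07, while Cplx1 and Cplx3 changed sign among the 4 comparisons, from -0.11 to 0.14 and from -0.43 to 0.74, and passed in none.

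Unc13c, which encodes Munc13-3, showed the largest difference of the set in WT mice on vehicle. It read 9.72, 9.89, 10.26, 10.19 and 10.13 in the striatum of WT mice on vehicle, and from 7.54 through a median of 7.75 to 8.02 in the hippocampus, 2.28 ± 0.22 higher, or 4.85-fold (adjusted p = 4.52e-11, limma). The difference was 1.95 to 2.55 in the 4 comparisons, and Syt17 differed more than Unc13c in those outside WT on vehicle. The other probe sets of Unc13c gave 1.71 and 2.34 in WT on vehicle. Unc13a, the main Munc13 of forebrain synapses, went the other way (-0.44 ± 0.10). The RIM scaffolds split as well, with Rims2 higher (0.59 ± 0.10) and Rims1 lower (-0.42 ± 0.11). The very large scaffold proteins Piccolo (Pclo, -0.39 ± 0.08) and Bassoon (Bsn, -0.34 ± 0.09) were both lower.

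Among the Rab3 genes Rab3b was higher (0.27 ± 0.11) and Rab3a, the major Rab3 of brain, differed by -0.08 ± 0.05 and did not pass. Rab3c was lower in striatum in WT on vehicle (-0.26 ± 0.09, adjusted p = 0.0188, limma), and its differences were 0.12, 0.10 and 0.21 in WT on inhibitor, KO on vehicle and KO on inhibitor, none of which passed. Its probe sets disagreed. In a fit over all probe sets the brightest (mean signal 11.43), used here, gave -0.26, and those with mean signals of 8.53 and 8.72 gave -0.73 and -0.42, whereas that with a mean signal of 6.06 gave 0.26 with adjusted p = 0.0325 (limma). The fifth, at a mean signal of 2.82, gave 0.03 ± 0.07 and did not pass. Rph3a, the rabphilin that binds Rab3, was at -0.35 ± 0.14 in WT on vehicle (adjusted p = 0.0502, limma) and passed as lower in the other 3 comparisons (-0.63 to -0.41).

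Within the striatum the release genes also varied from array to array with the glutamatergic markers. The slope of each gene on the marker mean, fitted inside the 4 striatal groups over 20 arrays, passed for 15 of the 39 members at an adjusted p under 0.05 (limma), 14 upwards and 1 downwards. Over all genes 7.69% passed, 5.86% upwards and 1.82% downwards. The median slope was 0.10 over the members and -0.02 over all genes. The steepest were Stx1a, the syntaxin of fast release, at 0.80 ± 0.04 (SE) log2 units per unit of the marker mean (adjusted p = 3.65e-10), Syt13 at 0.79 ± 0.09, Syt17 at 0.70 ± 0.09 and Cplx3 at 0.56 ± 0.16. Sv2b (0.41 ± 0.04), Rims1 (0.32 ± 0.04), Syn1 (0.31 ± 0.03), Rph3a, Syt1, Pclo, Bsn, Napb, Nsf and Snap25 (0.18 to 0.30) followed. Unc13c had a slope of -0.28 ± 0.07 (adjusted p = 0.0154, limma). Of the other 24 members, Vamp1 was at 0.42 ± 0.15 (adjusted p = 0.0984), and the rest lay between -0.13 and 0.17.

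The per-array values show the spread behind these slopes. Stx1a read 10.42, 10.47, 9.53, 9.15 and 10.64 on the 5 WT vehicle arrays, from 8.86 through a median of 8.92 to 9.93 on the 6 WT inhibitor arrays, 9.79, 10.26, 10.09, 9.77 and 10.27 in KO on vehicle, and 11.18, 8.94, 9.81 and 10.66 in KO on inhibitor. Its SD was 0.66 in WT on vehicle and 0.99 in KO on inhibitor, and in KO on inhibitor the array with the highest marker mean (KO inhibitor 34, 9.47) was the highest for Stx1a and that with the lowest (KO inhibitor 35, 6.79) was the lowest. Syt13 read 9.10, 9.33, 8.37, 7.50 and 9.36 in WT on vehicle, where the marker means of the same arrays were 8.56, 8.63, 7.55, 6.81 and 8.78, so that both were lowest on the same 2 arrays. Syn1 read 11.31, 11.24, 10.88, 10.73 and 11.30 there. Vamp2, for comparison, read 11.72, 11.82, 11.59, 11.84 and 11.65, with a slope of 0.05 ± 0.04 that did not pass. Of the marker lists, 5 of 8 striatal projection neuron markers had a downward slope that passed, 3 of 10 interneuron markers an upward one, and no marker of the hippocampal, thalamic, astrocyte, oligodendrocyte, microglia, endothelial or choroid plexus lists passed. The glutamatergic markers themselves form the measure.

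**Figure D2:**
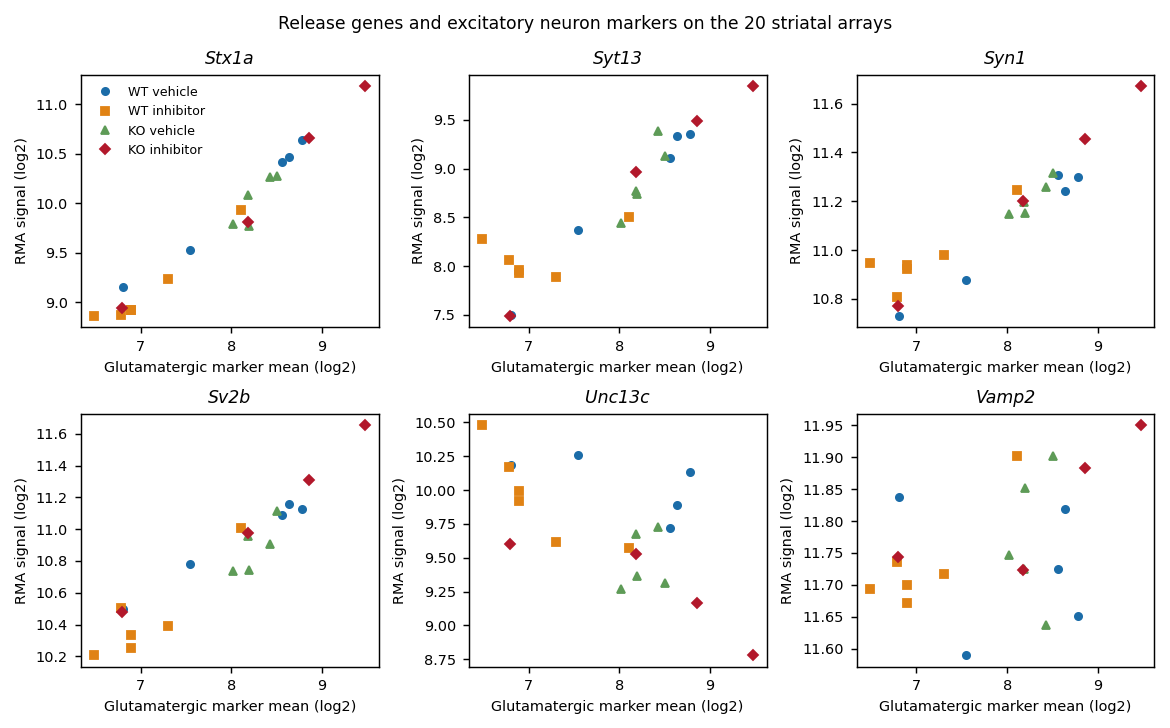
Log2 signal of 6 release genes on the 20 striatal arrays against the mean of the 9 glutamatergic markers (log2), 1 point per array, with a colour and marker for each group. Stx1a, Syt13, Syn1 and Sv2b rise with the markers inside groups, Unc13c falls, and Vamp2 shows no slope that passed the test.

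**Figure D3:**
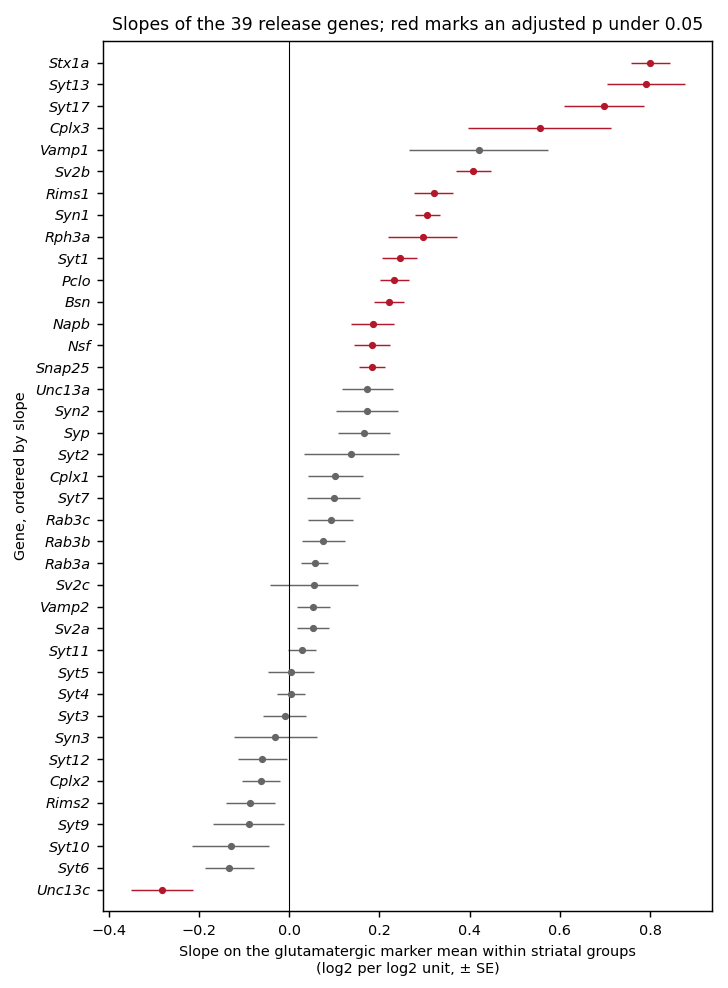
Slope of each of the 39 release genes on the glutamatergic marker mean inside the striatal groups (log2 per log2 unit), with bars of ± 1 SE; red marks an adjusted p under 0.05. The 14 upward slopes that passed run from 0.18 (Snap25) to 0.80 (Stx1a), and Unc13c is the only downward one, at -0.28.

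The number of slopes depended on few arrays. It was 10 without KO inhibitor 35, where 1.49% of all genes passed, and 11 without KO inhibitor 34, where 3.73% did. Over all single arrays left out it was between 10 and 17, and over all genes between 1.49% and 21.1% passed, the highest share without WT inhibitor 13. Without the 4 arrays that had the largest difference between 3′ and 5′ Gapdh probe sets in their group, a sign of RNA quality, it was 3, with 91 genes passing of all 18193. Those 4 arrays included the lowest marker mean in WT on vehicle (WT vehicle 4, 6.81, with a Gapdh difference of 1.05) and in KO on inhibitor (KO inhibitor 35, 6.79, with 0.67), and the highest in WT on inhibitor (WT inhibitor 13, 8.11, with 0.66), so the markers span less within those 3 groups without them. Without the 8 arrays of doubtful chromosome 17 score, of which 4 are striatal, 19 members and 23.6% of all genes passed. The part of RNA quality in these slopes was not tested.

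The inhibitor comparison in WT striatum asks what the drug does where its target is dense. None of the 39 members passed at an adjusted p under 0.05 (limma), where 0.181% of all genes did, and 11 had an unadjusted p under 0.05, against 9.57% of all genes. Syt9 read 7.32, 7.61, 7.53, 7.46 and 7.20 on vehicle and from 6.21 through a median of 6.81 to 7.26 on inhibitor. The groups overlapped only through 1 inhibitor array (WT inhibitor 14, 7.26), and the difference was -0.69 ± 0.14 (adjusted p = 0.0542). Syt10, a synaptotagmin known as a sensor for exocytosis of IGF-1 in olfactory bulb neurons, read 5.06, 4.94, 5.29, 5.18 and 4.95 on vehicle and from 5.37 through 5.87 to 6.32 on inhibitor. All inhibitor arrays lay above all vehicle arrays, with a difference of 0.74 ± 0.16 (adjusted p = 0.0664). All of its vehicle arrays lay below the median of all probe sets (6.1), as did WT inhibitor 13, 14 and 15 (5.38, 5.37 and 5.62). Rab3c was at 0.38 ± 0.09 (adjusted p = 0.135), with inhibitor arrays from 11.35 to 11.67 above the vehicle arrays, 10.71 to 11.31.

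This comparison is sensitive to the arrays used. Without the 3 WT inhibitor arrays whose chromosome 17 score lies on the KO side (and the KO vehicle array likewise), 3 members passed: Syt10 rose by 1.12 ± 0.13 (adjusted p = 8.43e-05, limma), Syt9 fell by 0.93 ± 0.14 (adjusted p = 9.48e-04) and Sv2c rose by 0.64 ± 0.14 (adjusted p = 0.0193). Over all genes 4.23% passed there. Of the WT arrays left out, WT inhibitor 13 and 15 scored 0.589 and 0.541, little above the boundary of 0.5. On the 3 inhibitor arrays that remain, Syt10 read 6.16, 6.32 and 6.12, Syt9 6.79, 6.47 and 6.21, and Sv2c 5.02, 5.58 and 5.43. The mean of 7 endothelial markers was 8.81, 8.93 and 8.96 on these same 3 arrays, against 8.28 to 8.45 on the 3 left out and 8.16 to 8.46 on WT vehicle, and its part in these values was not tested. With all arrays 3 of these 7 markers had an unadjusted p under 0.05 and 0 passed the adjusted threshold (limma). Leaving out WT inhibitor 13 alone let Syt10 pass (0.159% of all genes did), and leaving out WT inhibitor 14 alone let Syt10 and Syt9 pass (0.401% of all genes). The glutamatergic markers differed too, from 6.49 to 8.11 on inhibitor against 6.81 to 8.78 on vehicle, with 6 of 9 at an unadjusted p under 0.05 and none past the adjusted threshold. Stx1a (-0.92 ± 0.33) and Sv2b (-0.48 ± 0.18), which follow those markers, had adjusted p = 0.325 and 0.343 (limma) with all arrays. They passed, together with Syt10, without the 4 arrays of largest Gapdh difference (0.473% of all genes), and together with Syt10, Syt6 and Syt9 when limma's array weights were used (1.07% of all genes). A covariate for the glutamatergic markers was fitted with all arrays only, and neither Stx1a nor Sv2b passed there. The part of the markers in the calls under the other settings was not tested.

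**Figure D4:**
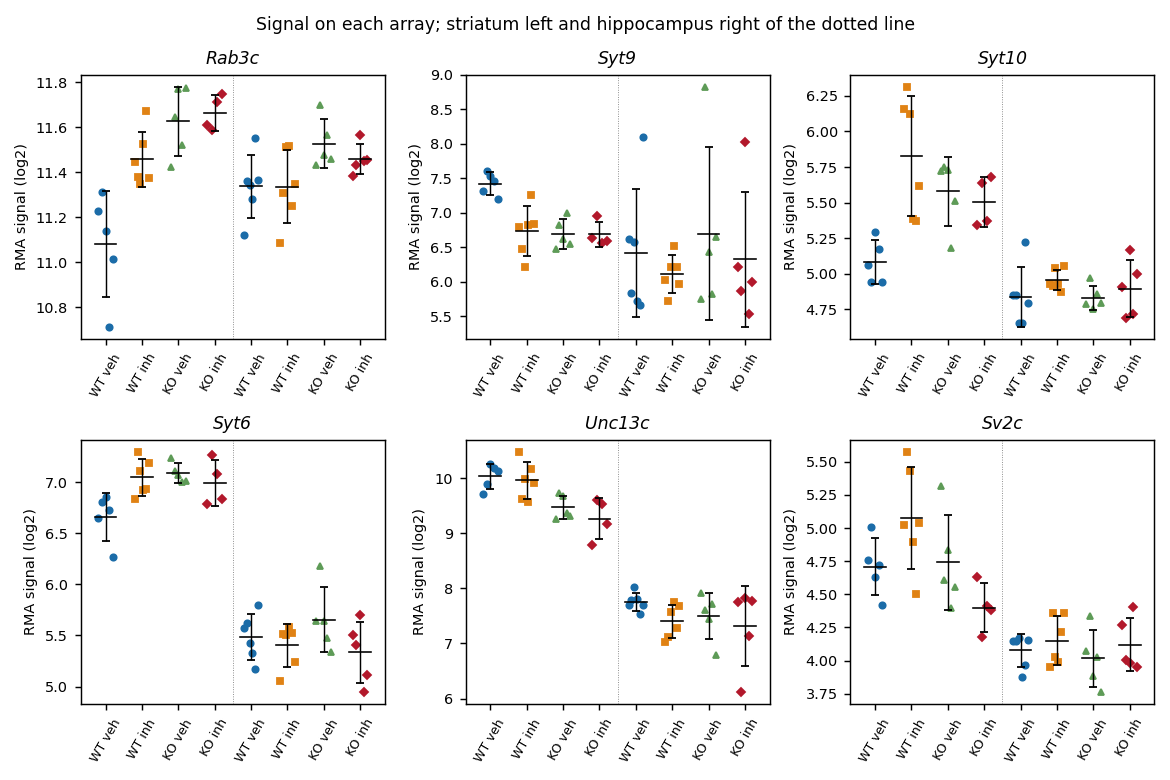
Log2 signal of Rab3c, Syt9, Syt10, Syt6, Unc13c and Sv2c on every array of the 8 groups, with group means and bars of ± 1 SD; axes do not start at 0. Striatal Rab3c is lowest in WT on vehicle (10.71 to 11.31) and striatal Syt9 is highest there (7.20 to 7.61), and Unc13c and Syt6 are higher on every striatal array than on any hippocampal array.

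Rab3c was the only member that passed between arrays labelled KO and WT, both on vehicle, in the striatum, where 0.137% of all genes passed. The gene encodes a small GTPase of synaptic vesicles. It read 11.23, 11.31, 11.14, 10.71 and 11.01 in WT and 11.42, 11.64, 11.77, 11.52 and 11.77 in KO, with no overlap, and rose by 0.55 ± 0.10 (SE), or 1.46-fold (adjusted p = 0.0229, limma). Of its other probe sets, in the fit over all of them, those with mean signals of 8.53 and 8.72 gave 0.84 ± 0.19 and 0.87 ± 0.17, with adjusted p = 0.116 and 0.0503 (limma), that with a mean signal of 6.06 gave 0.26 ± 0.11, and that with 2.82 gave 0.12 ± 0.08. With a covariate for the glutamatergic markers the difference was 0.53 ± 0.09 (adjusted p = 0.0188). None of the 9 glutamatergic markers passed in this comparison, and their mean was 8.02 to 8.50 in KO and 6.81 to 8.78 in WT. Without the arrays of doubtful chromosome 17 score Rab3c rose by 0.60 ± 0.10 (adjusted p = 0.00694, limma), and Syt9 passed as well (-0.68 ± 0.13, adjusted p = 0.0159), where 0.797% of all genes passed. The KO vehicle array left out there was also the highest of its group in endothelial markers (8.90, against 8.31 to 8.42). The call on Rab3c was lost when any 1 of KO vehicle 26, 28 or 30 or WT vehicle 3, 4 or 5 was left out. Between 0.0440% and 0.110% of all genes passed in those removals. The Rab3c call was also lost without the 4 arrays of largest Gapdh difference, where 0.00% of all genes passed. The same held when only the 2 groups compared entered the fit, where Syt9 passed instead.

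The next smallest p-values in that comparison belonged to Syt9 and Syt6. Syt9 read 6.47, 6.82, 6.62, 7.0 and 6.55 in KO, all below the lowest WT array (7.20), a difference of -0.73 ± 0.15 (adjusted p = 0.0569, limma). Syt6 read 7.24, 7.11, 7.07, 7.0 and 7.01 in KO and at most 6.86 in WT (0.43 ± 0.11, adjusted p = 0.214). This comparison and the inhibitor comparison in WT share the 5 WT vehicle arrays, so their values are given side by side only. Relative to WT on vehicle, Rab3c was at 0.38 in WT on inhibitor and 0.55 in KO on vehicle, Syt9 at -0.69 and -0.73, Syt6 at 0.39 and 0.43, and Syt10 at 0.74 and 0.50.

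In KO striatum the inhibitor comparison asks whether the drug acts without its target. None of the 39 members passed (0.00% of all genes did), none had an unadjusted p under 0.05 (limma; 1.41% of all genes did), and the smallest p belonged to Sv2c (-0.34 ± 0.19), Unc13a (0.19 ± 0.13) and Rims2 (0.14 ± 0.11). Rab3c read 11.61, 11.59, 11.71 and 11.75 in KO on inhibitor, inside the KO vehicle range (11.42 to 11.77). Syt9 (6.56 to 6.96) and Syt10 (5.34 to 5.68) also lay within their KO vehicle ranges (6.47 to 7.0 and 5.18 to 5.75). The difference between the inhibitor effects in KO and WT passed for no member and for 0.00% of all genes, with 8 members at an unadjusted p under 0.05 (7.40% of all genes). Its smallest p belonged to Syt10 (-0.82 ± 0.24, adjusted p = 0.474, limma), Syt9 (0.69 ± 0.21) and Syt6 (-0.48 ± 0.16). Without the arrays of doubtful chromosome 17 score Syt10 (-1.15 ± 0.18, adjusted p = 0.00347) and Syt9 (0.87 ± 0.19, adjusted p = 0.0436) passed, with 0.868% of all genes, and without the 4 arrays of largest Gapdh difference Sv2b passed, with 0.0550%.

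KO against WT, both on inhibitor, gave no member that passed in the striatum and 0.00% of all genes, with 13 members at an unadjusted p under 0.05 against 12.2% of all genes. Unc13a read 9.51, 9.22, 9.61 and 9.67 in KO and from 8.74 through a median of 8.92 to 9.18 in WT, so no array overlapped (0.55 ± 0.13, adjusted p = 0.173, limma). Unc13c read 8.78, 9.60, 9.52 and 9.16 in KO and from 9.57 through 9.96 to 10.48 in WT (-0.69 ± 0.17, adjusted p = 0.177), with an overlap of 1 array on each side. Sv2c read 4.63, 4.18, 4.41 and 4.38 against 4.50 through 5.03 to 5.58 (-0.68 ± 0.18, adjusted p = 0.183). The groups differed in the glutamatergic markers, 6.79 to 9.47 in KO and 6.49 to 8.11 in WT, with 7 of 9 at an unadjusted p under 0.05. KO inhibitor 35 held the lowest marker mean of its group, and without it 7 members passed: Stx1a, Sv2b, Pclo, Rims1, Syt13 and Unc13a higher, and Unc13c lower, where 1.03% of all genes passed. Without the arrays of doubtful chromosome 17 score 6 members and 6.52% of all genes passed, Sv2b and Unc13a higher and Sv2c, Syn3, Syt10 and Unc13c lower. With array weights 11 members and 5.65% of all genes passed, and without the arrays of largest Gapdh difference 11 members and 2.92% of all genes. A covariate for the glutamatergic markers was fitted with all arrays only, and no member passed there. The part of the markers in the counts under the other settings was not tested.

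**Figure D5:**
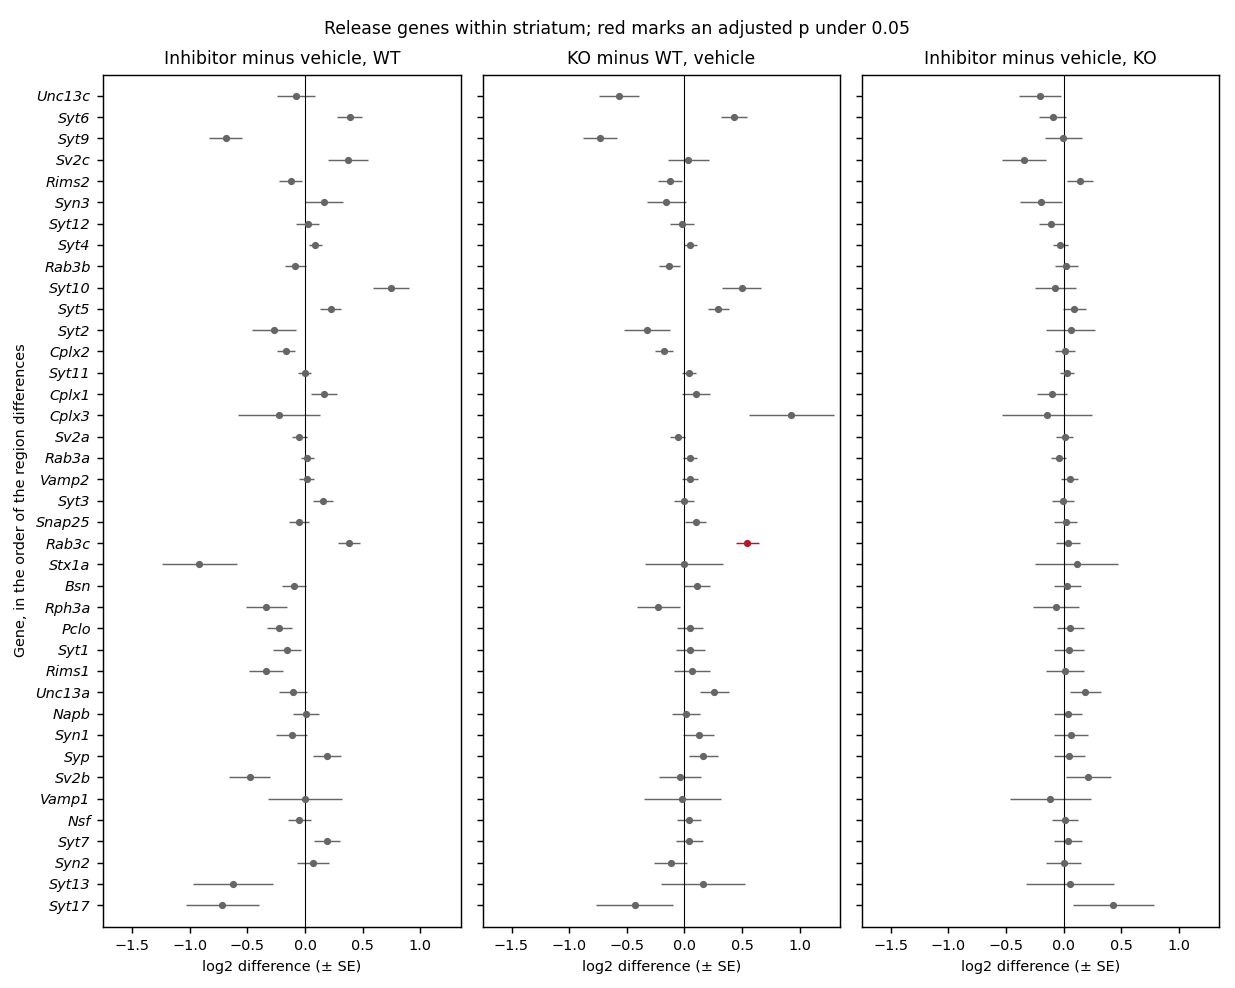
Differences (log2, bars ± 1 SE) of the 39 release genes in 3 striatal comparisons, in the order of the region differences; red marks an adjusted p under 0.05 with all arrays. Rab3c in KO against WT on vehicle, at 0.55, is the only red point.

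In the hippocampus no member passed in any of the 5 comparisons of genotype and treatment. Over all genes 0.00% passed for the inhibitor in WT, 0.00% for KO on vehicle, 0.00% for the inhibitor in KO, 0.00550% for KO on inhibitor and 0.00% for the difference of the inhibitor effects. At an unadjusted p under 0.05 (limma) the members numbered 0, 2, 1, 3 and 2 in the same order, against 10.7%, 6.62%, 3.82%, 15.6% and 11.8% of all genes. The 2 in KO on vehicle were Rab3c, which read 11.43, 11.70, 11.48, 11.56 and 11.46 in KO and from 11.12 through 11.35 to 11.55 in WT (0.19 ± 0.08, adjusted p = 0.690), and Syn1 (-0.12 ± 0.05, adjusted p = 0.697). Rab3c thus overlapped between the groups in hippocampus. The other smallest p-values belonged to Syt12 (-0.10 ± 0.05), Vamp1 (-0.13 ± 0.07) and Vamp2 (0.09 ± 0.05) for the inhibitor in WT, to Rph3a (-0.17 ± 0.08) for KO on vehicle, to Syt6 (-0.32 ± 0.15), Syt12 (0.09 ± 0.05) and Rims2 (-0.14 ± 0.10) for the inhibitor in KO, and to Syt12 (0.12 ± 0.05), Rims1 (-0.11 ± 0.05) and Nsf (0.12 ± 0.05) for KO on inhibitor. For the difference of the inhibitor effects they were Syt12 (0.19 ± 0.07), Rims2 (-0.29 ± 0.13) and Vamp1 (0.19 ± 0.10).

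Whether the effects differed between the regions was tested directly. The inhibitor effect in WT differed between striatum and hippocampus for no member and 0.214% of all genes, and the KO effect on vehicle for no member and 0.0495% of all genes. At an unadjusted p under 0.05 (limma) the members numbered 7 and 4, against 12.7% and 5.29% of all genes. For the inhibitor the smallest p belonged to Syt10 (0.62 ± 0.18, adjusted p = 0.124), Rab3c (0.38 ± 0.12) and Stx1a (-1.05 ± 0.38). For the KO effect it belonged to Rab3c (0.36 ± 0.12, adjusted p = 0.789), Syt10 (0.50 ± 0.19) and Syt5 (0.34 ± 0.14), so the rise of Rab3c in striatum is not shown to differ from its value in hippocampus. Leaving out WT inhibitor 13 or 14, or the arrays of doubtful chromosome 17 score, let 1 member pass for the inhibitor, Syt10 in each case (0.671%, 0.846% and 4.31% of all genes in that order), and array weights let 6 pass (3.39%).

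A list of 65 further genes of release, vesicle recycling and transmitter loading was measured alongside. In WT mice on vehicle 7 of the 65 were higher in striatum and 35 lower, against 15.9% and 17.9% of all genes. Of 39 further release genes 2 were higher and 21 lower, among them Ppfia2, the active-zone scaffold liprin-α2 (-1.69 ± 0.14). Of 21 vesicle recycling genes 3 were higher, including the endophilin Sh3gl3 (0.73 ± 0.06), and 11 lower. All 5 vesicular transporters passed: Slc32a1, which loads GABA (1.66 ± 0.10), and Slc18a3, which loads acetylcholine (0.93 ± 0.13), were higher, and Slc17a7 (-2.43 ± 0.47) and Slc17a6 (-2.05 ± 0.58), which load glutamate, and Slc18a2, which loads monoamines (-0.91 ± 0.26), were lower. Slc18a3 and Slc18a2 had mean signals of only 4.73 and 4.10 over all arrays, below the median of all probe sets (6.1). Inside the striatal groups 21 of the 65 had an upward slope on the glutamatergic markers and 2 a downward one. Over all genes 5.86% and 1.82% did. The steepest were Slc17a7, which is itself among the markers, Cadps2, a priming factor of dense-core vesicles (1.30 ± 0.11), and Doc2a, a calcium sensor of spontaneous and asynchronous release (0.75 ± 0.07), and the downward ones were Doc2b (-0.26 ± 0.06) and Slc32a1 (-0.18 ± 0.05). None of the 65 passed in any comparison of genotype or treatment within a region, nor did the effects differ between the regions for any of them. The smallest p-values in WT striatum on inhibitor were those of Synpr (0.46 ± 0.11, adjusted p = 0.103), Doc2b (0.61 ± 0.15, adjusted p = 0.137) and Slc32a1 (0.41 ± 0.11, adjusted p = 0.144).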

How the data were processed

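The values are those of the deposited series matrix: log2 signals for 42 arrays of 8 groups. The submitters' processing notes name RMA as the tool of the authors. The version was not given in the sources used here. Array medians were 6.05 to 6.12. Groups were taken from the sample titles. Of 45101 probe sets, 64 controls, 932 that name several genes and 9160 with no listed gene were left out. The other 34945 name 1 gene each, 18193 genes in all, with symbols updated by Entrez identifier for 34741 of them. The brightest probe set over all arrays stood for a gene. No p-value or fold change of the authors was used.

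Members and lists were chosen with earlier results of these data known. Comparisons within a region were fitted with limma 3.58.1 in R 4.3.3 (lmFit, eBayes) over its 4 groups, and region comparisons over all 8 groups, with Benjamini-Hochberg adjustment over 18193 genes and a threshold of 0.05. The slope used the 20 striatal arrays, with group terms and the mean of the glutamatergic markers as a covariate. The scripts were tested on simulated data. Named members are all that passed within a region, otherwise the 3 smallest p-values, and for the regions up to 10 per direction by size and those whose direction varied, with up to 3 further genes per comparison. Other members named in a comparison were chosen after their values were seen. The chromosome 17 score of an array averages the 15 genes of that chromosome, Pde10a aside, that best separated the genotype labels in the other region, scaled to 0 at the median of WT on vehicle and 1 at that of KO on inhibitor in its own region, and 0.5 divides the sides. The choice of its genes uses the labels. The closest 2 arrays correlated at 0.997, and the SD of their difference was 0.167, so no array was counted as a copy. The number of arrays limits the precision. Alternatives were the mean of a gene's probe sets, any probe set, no dim probe sets, array weights, only the groups compared, the marker covariate, a block on the title number, and leaving out arrays.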

Additional observations from a re-analysis of the deposited data

Results flagged for a closer look

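In 312 groups of 4 to 6 arrays (39 genes in 8 groups), 17 held a highest or lowest array whose gap to its nearest neighbour exceeded Dixon's 95% critical value for the group, 5.45% of the groups, where chance gives about 1 in 20. Of these, 4 lay on WT striatum inhibitor 13, which was high for Syt17 (7.48), Stx1a (9.93), Vamp2 (11.90) and Sv2b (11.01), and which also had the highest glutamatergic marker mean (8.11) and the largest Gapdh difference (0.66) of its group. Another 4 lay on WT hippocampus vehicle 1, which was low for Syt1 (12.84), Stx1a (9.86), Cplx1 (12.16) and Cplx3 (5.81), and which had the highest astrocyte (11.51, against 10.86 to 11.10) and microglia (8.67, against 8.28 to 8.44) marker means of its group. WT hippocampus vehicle 5 was high for Syt10 (5.22) and Syt17 (10.02). KO hippocampus inhibitor 36 was high for Syt9 (8.02) and low for Vamp2 (11.82). The rest were single genes on single arrays. Napb was low on WT striatum vehicle 3 (10.66), and Cplx3 was low on KO striatum inhibitor 35 (6.20). Sv2b was low on KO hippocampus vehicle 30 (11.64), and Syp was high on WT hippocampus vehicle 4 (12.28). Sv2a was high on WT hippocampus inhibitor 13 (10.87), the array with the lowest hippocampal marker mean (7.38).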

How the results depend on the processing

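The region counts stayed between 17 and 31 members over 28 settings, all within 1.5 times the count reported, and the hippocampal counts were 0 in all 30 settings. With array weights the members that passed numbered 5 for the inhibitor in WT striatum, 2 for KO on vehicle, 11 for KO on inhibitor and 6 for the difference of the inhibitor effect between regions. Over all genes 1.07%, 0.478%, 5.65% and 3.39% passed in that order. Without the arrays of doubtful chromosome 17 score the same 4 counts of members were 3, 2, 6 and 1, and the inhibitor effect in KO minus that in WT gave 2. The shares of all genes were 4.23%, 0.797%, 6.52%, 4.31% and 0.868%. Without the arrays of largest Gapdh difference the first 3 were 3, 0 and 11, the difference of the inhibitor effects gave 1 and the slopes gave 3. Leaving out single arrays gave 0 to 2 for the inhibitor in WT striatum, 0 to 1 for KO on vehicle, 0 to 7 for KO on inhibitor, 0 to 1 for the region difference of the inhibitor effect and 10 to 17 for the slopes. Of all 18193 genes 4 to 73, 8 to 82, 0 to 187, 19 to 154 and 271 to 3843 passed in that order. For the regions leaving out single arrays gave 23 to 27 members in WT on vehicle, 27 to 28 in WT on inhibitor, 20 to 22 in KO on vehicle and 15 to 24 in KO on inhibitor. Of all genes 4837 to 6754, 6061 to 6362, 4393 to 4796 and 3594 to 5042 passed there. With the title number as a replicate block the 4 region counts were 27, 27, 23 and 22. Of the 20 pairs of arrays with the same title number in both regions 6 correlated above 0.1 in their deviations from group means (-0.38 to 0.31), so the numbers were not taken to pair the arrays. By chromosome 17 score, numbers 25 and 14 lay on the other genotype's side in both regions. Numbers 12, 13, 15 and 26 did so in a single region. Groups within a region share no number, so no block could be fitted there. With the mean of its probe sets Vamp2 in WT hippocampus on inhibitor turned to -0.11, not past the threshold. Of 714 values of single named members under other settings, 659 kept direction and side of the threshold, 33 no longer passed, 21 passed newly and 1 turned. Of 1610 with 1 array left out, 1544 kept both, 59 no longer passed and 7 passed newly. The causes were not tested. The slope settings without doubtful, high-Gapdh or extreme-marker arrays were chosen after seeing the data.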
